A study of Mus musculus with 10 samples.

Results

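Krueppel-like factors were followed in mouse bone marrow progenitors grown under different leukemia oncogenes. Members were all probe sets that the platform annotation assigns to Klf2, Klf3, Klf4, Klf5, Klf6, Klf7, Klf9, Klf10 or Klf13. They number 33 of the 45101 probe sets on the array and cover 9 of 18194 genes. A probe set is a group of short probes that together read a transcript or several transcripts, and its value is a deposited signal, a brightness on a linear scale. Of the 33, 29 passed the filter on low values, which asked for a signal above 369 on at least 3 arrays, and so entered the tests with 30945 probe sets in all. The 4 that did not pass were 1442920_at and 1458487_at of Klf3, 1430255_at of Klf5 and 1456030_at of Klf13.

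RNA came from 10 cultures of primary marrow progenitors, hybridized to 1 Affymetrix mouse genome array each. All were immortalized by an introduced oncogene and derived in stem cell factor without GM-CSF. The groups were MLL-ENL (1 array), NUP98-NSD1 (3 clones), HoxA9 together with Meis1 (HoxA9+Meis1, 3 clones) and HoxA9 alone (3 clones). MLL-ENL fuses a histone methyltransferase to a transcription elongation factor, NUP98-NSD1 fuses a nucleoporin to another histone methyltransferase, HoxA9 is a homeobox factor and Meis1 is its homeobox partner. No untransduced progenitor is among the samples, so every value compares one immortalized population with another. The labels do not say whether clones came from separate animals, so p-values measure the spread between these clones, which may be technical. For the single MLL-ENL array the fit borrowed the spread of the other groups' clones, an assumption, and the number of arrays limits the precision. In bulk RNA, fewer cells of a type and less RNA per cell cannot be told apart.

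Krueppel-like factors are transcription factors whose similar zinc fingers bind CACCC boxes and GC-rich DNA, while the rest of each protein differs and sets whether it activates or represses. In blood cells Klf4 is known for its part in making monocytes, Klf2 for holding lymphocytes and monocytes in a resting state, and Klf3 for repressing genes together with the corepressor CtBP. Klf9 and Klf10 are hormone- and TGF-beta-induced repressors, and Klf13 binds the promoter of the chemokine gene Ccl5 in T cells.

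Between HoxA9+Meis1 and HoxA9, 2 of 5 tested Klf3 probe sets and 4 of 7 of Klf9 were called lower. Klf4 was higher with NUP98-NSD1, and Klf2 was highest with MLL-ENL. The promoters of these genes, which carry the differences described below, are shown. Each is the 250 bases before the gene's start from RefSeq, build GRCm38.p6, written 5′ to 3′ on the gene's strand: Klf3 is chr5:64803271-64803520 on the + strand, Klf9 is chr19:23140976-23141225 on the + strand, Klf4 is chr4:55532476-55532725 on the - strand and Klf2 is chr8:72318812-72319061 on the + strand. Capitals mark letters that match, on either strand, CACCC (the box that the family itself binds) or TGACAG (the core bound by Meis1). TGATTTAT (a HOX and PBX element) and a single exact form of the MEF2 consensus were also searched on both strands. Other forms of that consensus were not searched.
Klf3: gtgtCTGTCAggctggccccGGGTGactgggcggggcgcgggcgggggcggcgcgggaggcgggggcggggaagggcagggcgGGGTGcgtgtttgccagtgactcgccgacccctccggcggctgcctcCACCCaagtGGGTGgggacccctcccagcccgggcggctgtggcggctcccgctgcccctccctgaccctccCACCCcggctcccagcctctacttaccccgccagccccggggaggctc
Klf9: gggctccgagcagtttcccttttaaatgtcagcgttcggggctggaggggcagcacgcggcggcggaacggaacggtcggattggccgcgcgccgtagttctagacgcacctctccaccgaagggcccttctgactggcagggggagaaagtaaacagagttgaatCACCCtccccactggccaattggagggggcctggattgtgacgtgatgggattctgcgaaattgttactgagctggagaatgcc
Klf4: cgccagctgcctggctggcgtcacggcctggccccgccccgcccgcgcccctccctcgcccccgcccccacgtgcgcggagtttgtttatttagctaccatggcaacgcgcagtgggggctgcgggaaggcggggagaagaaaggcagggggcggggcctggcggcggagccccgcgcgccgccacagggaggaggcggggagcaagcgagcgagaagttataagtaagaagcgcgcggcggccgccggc
Klf2: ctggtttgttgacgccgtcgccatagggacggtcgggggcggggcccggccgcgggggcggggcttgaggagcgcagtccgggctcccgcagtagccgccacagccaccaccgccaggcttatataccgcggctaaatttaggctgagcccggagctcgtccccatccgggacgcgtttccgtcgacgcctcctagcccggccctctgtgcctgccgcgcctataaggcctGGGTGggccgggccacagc
The Klf3 window held 5 matches of CACCC and 1 of TGACAG, those of Klf9 and Klf2 held 1 CACCC each, and that of Klf4 held none of the searched letters. Klf7 had 3 CACCC matches, Klf13 had 1 and Klf6 had 0. TGATTTAT and the searched MEF2 form were found in none of the 7 windows. The Klf2 window does hold ctaaatttag, which fits the MEF2 consensus in a form that was not searched. Its frequency over all promoters was not counted, and whether the other windows hold such a form was not tested. Over 32851 promoters of the same length, 52% held CACCC, 6.92% held it at least 3 times and 15.9% held TGACAG. In the same promoters 0.837% held TGATTTAT and 0.14% held the searched MEF2 form. A match describes letters only. No promoter was printed for Klf5 and Klf10.

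All arrays had been scaled alike, with a trimmed mean of 2500.01 to 2500.02. Their median signal lay between 440.3 and 660.3. The 18 hybridization control probe sets, which read spiked-in transcripts, had mean log2 signals of 14.01 to 14.13 on the MLL-ENL and NUP98-NSD1 arrays and 13.18 to 13.42 on the HoxA9+Meis1 and HoxA9 arrays. Of the 6 comparisons, MLL-ENL against NUP98-NSD1 and HoxA9+Meis1 against HoxA9 each used arrays of a single such set. In the other 4 comparisons the set and the oncogene cannot be told apart. The median log2 difference over all kept probe sets was -0.14 for NUP98-NSD1 against HoxA9, -0.13 for NUP98-NSD1 against HoxA9+Meis1, -0.02 for HoxA9+Meis1 against HoxA9, -0.07 for MLL-ENL against NUP98-NSD1, -0.20 for MLL-ENL against HoxA9 and -0.20 for MLL-ENL against HoxA9+Meis1. For NUP98-NSD1 against HoxA9 it was -0.35 among the dimmer probe sets, split at the median brightness, and -0.02 among the brighter ones. All 12 myeloid progenitor markers, among them Kit, Mpo, Elane and Spi1, were above the filter level on every array, with 1 exception. Cd34 was below it in HoxA9 clones 1 and 2 (97.8 and 93.9) and had 1845 in HoxA9 clone 3.

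Across the family the differences were uneven. Klf4 was higher in NUP98-NSD1 cells than in both homeobox groups, most Klf3 probe sets were lowest in HoxA9+Meis1 cells, Klf9 probe sets 1428288_at and 1428289_at were highest in HoxA9 cells, and Klf2 was highest in the MLL-ENL culture. Klf10 and Klf13 had 0 calls by probe set in the 6 comparisons. The threshold for a call was 0.05 on the p adjusted by Benjamini-Hochberg over all kept probe sets. Between NUP98-NSD1 and HoxA9, 7 of the 29 Klf probe sets were higher and 4 lower, or 37.9%, against 29% of all kept probe sets (12.3% higher and 16.7% lower). Between NUP98-NSD1 and HoxA9+Meis1, 11 were higher and 2 lower, or 44.8%, against 30.9% (13.8% higher and 17.2% lower).

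Between HoxA9+Meis1 and HoxA9, 6 were lower and 0 higher, or 20.7%, against 6.89% of all kept probe sets (3.4% higher and 3.49% lower). At an unadjusted p under 0.05 limma found 11 lower and 1 higher, from Klf3 (3), Klf7 (3), Klf9 (5) and Klf2 (1). No share over all kept probe sets is given at the unadjusted threshold, here or for single genes below, so such counts cannot be weighed. With cyclic loess scaling the 6 calls were 5 lower and 1 higher (Klf2). The median of the 29 differences was -0.45 in this comparison, against -0.02 over all. For MLL-ENL against NUP98-NSD1, 1 was higher and 1 lower, or 6.9%, against 3.98% (1.18% higher and 2.8% lower). MLL-ENL against HoxA9 gave 2 higher and 2 lower, or 13.8%, against 14.5% (5.01% higher and 9.46% lower). MLL-ENL against HoxA9+Meis1 gave 7 higher and 3 lower, or 34.5%, against 20% (7.66% higher and 12.4% lower). Probe sets of one gene share their transcripts, so these counts are not of independent members: the calls fell in 5, 6, 2, 2, 3 and 5 genes in the order given. With only the brightest kept probe set of each of the 9 genes, HoxA9+Meis1 against HoxA9 had 1 lower and 0 higher. The median difference was then 0.02, and 8.66% of all genes were called. NUP98-NSD1 against HoxA9+Meis1 had 2 higher and 2 lower, with a median of -0.04, against 32.6% of all genes. NUP98-NSD1 against HoxA9 had 2 higher and 3 lower, with a median of 0.26, against 31.4%. Scaling arrays to a common median moved the share of all calls that were higher, for example to 64.4% in NUP98-NSD1 against HoxA9, where it was 42.5% as deposited, and to 74.3% in MLL-ENL against HoxA9, where it was 34.6%. Among the Klf calls the same shares were 70% and 63.6% for NUP98-NSD1 against HoxA9, and 85.7% and 50% for MLL-ENL against HoxA9, with and without that scaling.

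**Figure D1:**
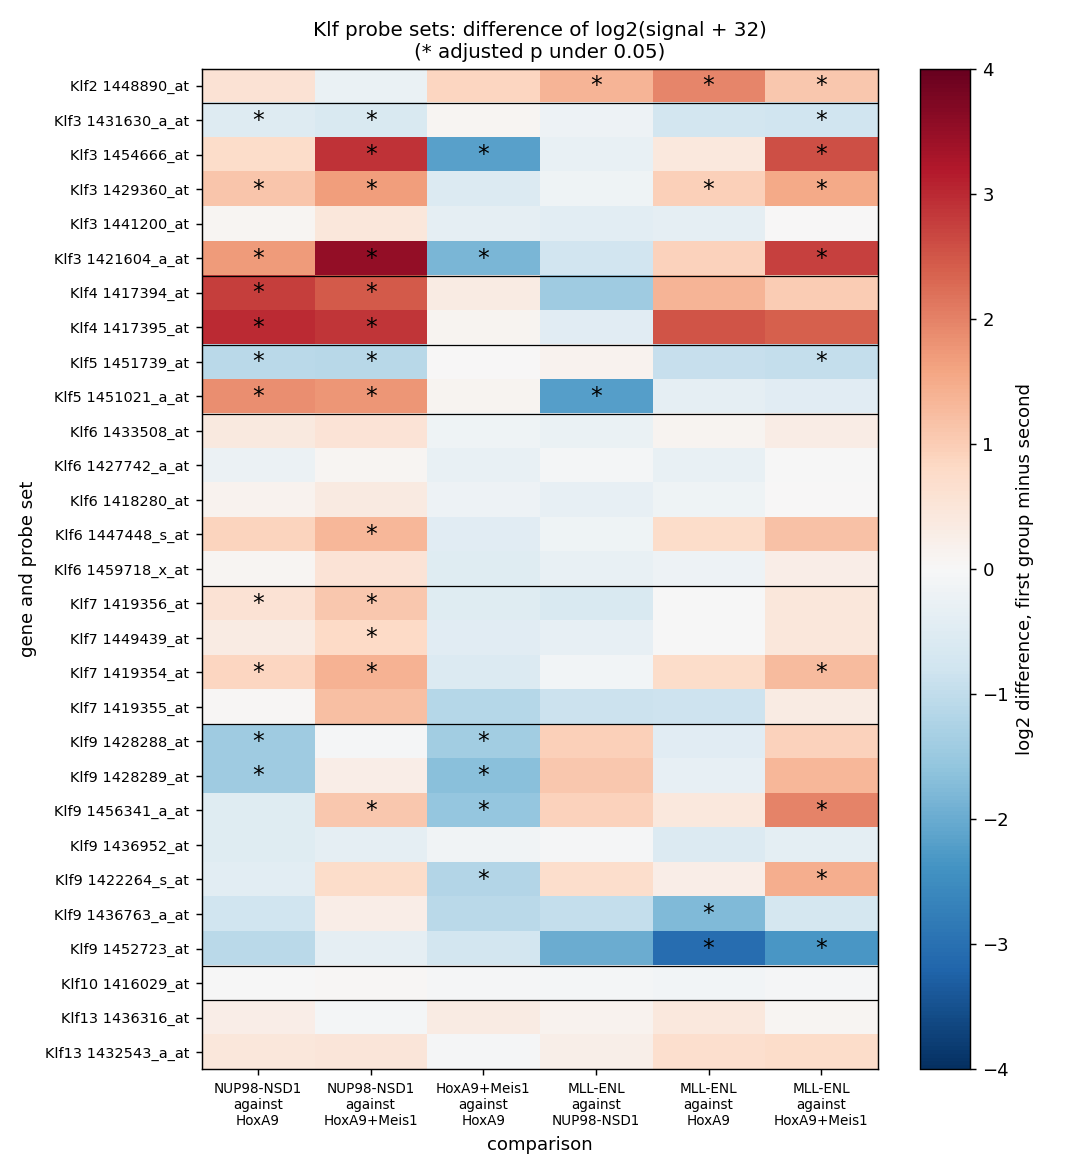
Differences of log2(signal + 32) for the 29 kept Klf probe sets (rows, grouped by gene) in the 6 comparisons (columns); the colour runs from blue, lower in the first-named group, to red, higher in it, and a star marks an adjusted p under 0.05. Klf4 and most of Klf3 are red in the NUP98-NSD1 columns, the HoxA9+Meis1 against HoxA9 column has stars only at Klf3 and Klf9, and Klf10 and Klf13 have none.

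Klf3, the CtBP-dependent repressor, had called probe sets that were lower in HoxA9+Meis1 than in HoxA9. Its probe set 1454666_at read 6368 in MLL-ENL, then 7385, 6696 and 9767 in the NUP98-NSD1 clones, 614, 1147.5 and 1545 in the HoxA9+Meis1 clones, and 5145, 4157 and 4949.6 in the HoxA9 clones. All 3 HoxA9+Meis1 clones lay below all other arrays. The mean was 1102 ± 467 in HoxA9+Meis1 and 4750.4 ± 523 in HoxA9 (SD, n = 3 each), a log2 difference of -2.16 (SE 0.28, adjusted p = 0.00131), or 4.48-fold lower. Only 0.853% of all kept probe sets fell further in this comparison. NUP98-NSD1, at 7949 ± 1612 (SD, n = 3), was 2.89 above HoxA9+Meis1 on the log2 scale (SE 0.28, adjusted p = 9.4e-05), and MLL-ENL was 2.59 above it (SE 0.397, adjusted p = 0.00231). In order of level, NUP98-NSD1, MLL-ENL and HoxA9 did not differ from each other beyond the test's threshold: NUP98-NSD1 against HoxA9 was 0.73 (adjusted p = 0.0753) although the clones did not overlap, and MLL-ENL was -0.30 from NUP98-NSD1 (adjusted p = 0.752) and 0.43 from HoxA9 (adjusted p = 0.516).

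A second Klf3 probe set, 1421604_a_at, had 1468 in MLL-ENL, 2389, 2232 and 3084.5 in NUP98-NSD1, 172.6, 100.5 and 384.5 in HoxA9+Meis1, and 869.6, 527.9 and 949 in HoxA9. HoxA9+Meis1 was again lowest on every clone, and 2 of its 3 clones were below the filter level, so the sizes of the differences from it rest in part on signals below that level and are not firm. The fitted difference from HoxA9 was -1.82 (SE 0.403, adjusted p = 0.0216), NUP98-NSD1 was 3.52 above HoxA9+Meis1 (SE 0.403, adjusted p = 2.2e-04) and 1.70 above HoxA9 (adjusted p = 0.0107), and MLL-ENL was 2.74 above HoxA9+Meis1 (adjusted p = 0.00876). The call against HoxA9 was lost in 6 of 18 alternatives, which included leaving out HoxA9 clone 1 or 3 or HoxA9+Meis1 clone 1 or 2; adjusted p ran up to 0.0852. The probe set 1429360_at had 3289 in MLL-ENL, 3271 to 4232 in NUP98-NSD1, 1050.4 to 1322 in HoxA9+Meis1 and 1515.5 to 1788 in HoxA9. It was 1.11 higher in NUP98-NSD1 than in HoxA9 (adjusted p = 0.00107), 1.67 higher than in HoxA9+Meis1 (adjusted p = 1.1e-04), and 0.95 and 1.51 higher in MLL-ENL than in HoxA9 and HoxA9+Meis1 (adjusted p = 0.0251 and 0.00257). The MLL-ENL call against HoxA9 was lost without HoxA9 clone 1. Its difference of -0.56 between HoxA9+Meis1 and HoxA9 did not pass (adjusted p = 0.0776), though the clones did not overlap.

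Another Klf3 probe set ran the other way. On 1431630_a_at the signal was 3239 in MLL-ENL, 3027, 4883 and 3571 in NUP98-NSD1, 4909, 6568 and 5765 in HoxA9+Meis1, and 5219, 5347.5 and 5530.3 in HoxA9. The fusion oncogenes had the low values and the homeobox groups the high ones. NUP98-NSD1 was -0.51 from HoxA9 (SE 0.173, adjusted p = 0.0477) and -0.60 from HoxA9+Meis1 (adjusted p = 0.0242), and MLL-ENL was -0.81 from HoxA9+Meis1 (adjusted p = 0.0409). These calls were lost in 11 of 19, 6 of 19 and 7 of 13 alternatives; with arrays brought to a common median the first was -0.32 (adjusted p = 0.298). Between HoxA9+Meis1 and HoxA9 it was 0.09 (adjusted p = 0.889). The fifth, 1441200_at, spanned 511.5 to 1929.5 over all arrays with no call. The position of each probe set on the transcripts was not used here. Of the 2 Klf3 probe sets that did not pass the filter, 1442920_at exceeded 369 only in MLL-ENL (509) and 1458487_at on no array (highest 242.6).

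Klf9, a repressor induced by glucocorticoid and thyroid hormone, had probe sets that were lower with Meis1 and with NUP98-NSD1 than with HoxA9 alone. Of its 7 tested probe sets, 4 were called lower in HoxA9+Meis1 and 2 in NUP98-NSD1, while all 7 differences were negative in both comparisons. Probe set 1428288_at read 13176 in MLL-ENL, 6148, 6339 and 8020.1 in NUP98-NSD1, 6493, 4918 and 10614.5 in HoxA9+Meis1, and 21896, 18734 and 14661 in HoxA9. Every HoxA9 clone was above every other array, with MLL-ENL next and the NUP98-NSD1 and HoxA9+Meis1 clones mixed below. HoxA9+Meis1 was -1.38 from HoxA9 (SE 0.248, adjusted p = 0.00784), or 2.6-fold lower, and this held under all 20 alternatives. NUP98-NSD1 was -1.42 from HoxA9 (SE 0.248, adjusted p = 0.00239) and -0.04 from HoxA9+Meis1 (adjusted p = 0.922). MLL-ENL did not pass against any group: -0.46 from HoxA9 (adjusted p = 0.415), 0.91 from HoxA9+Meis1 (adjusted p = 0.0916) and 0.95 from NUP98-NSD1 (adjusted p = 0.169).

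All 7 Klf9 probe sets had negative differences between HoxA9+Meis1 and HoxA9, from -1.68 to -0.14, and 4 passed the test. On 1428289_at the values were 5449 in MLL-ENL, 2415, 2155.5 and 3296 in NUP98-NSD1, 2789.9, 1151 and 3030.0 in HoxA9+Meis1, and 7691, 7498 and 5731 in HoxA9. It was -1.68 between HoxA9+Meis1 and HoxA9 (SE 0.321, adjusted p = 0.0109) and -1.41 between NUP98-NSD1 and HoxA9 (adjusted p = 0.00889). The difference between HoxA9+Meis1 and HoxA9 missed the threshold without the intensity trend (adjusted p = 0.055).

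On 1456341_a_at, HoxA9+Meis1 had the lowest values, 1329.7, 746 and 2154, against 5003, 3834 and 2969.9 in HoxA9, with 5202 in MLL-ENL and 2238, 2802 and 3316 in NUP98-NSD1. Its differences were -1.55 for HoxA9+Meis1 against HoxA9 (adjusted p = 0.0191), 1.07 for NUP98-NSD1 against HoxA9+Meis1 (adjusted p = 0.0334) and 1.98 for MLL-ENL against HoxA9+Meis1 (adjusted p = 0.016). The first was lost in 6 of 18 alternatives, among them leaving out HoxA9 clone 1 or 2 or HoxA9+Meis1 clone 1 or 2, and with a common median; the second was lost in 6 of 18. On 1422264_s_at HoxA9+Meis1 was -1.18 from HoxA9 (adjusted p = 0.0316) and MLL-ENL 1.44 above HoxA9+Meis1 (adjusted p = 0.0299); the first was lost in 7 of 18 alternatives and the second without HoxA9+Meis1 clone 2 (adjusted p = 0.0665). Against the direction of 1456341_a_at and 1422264_s_at, other Klf9 probe sets were low in MLL-ENL. The probe set 1452723_at had 43.1 there against 498 to 811 in HoxA9, at least 1.557-fold lower with MLL-ENL set at the filter level (adjusted p = 0.0132), and 1436763_a_at had 205.7 against 766.2 to 786, at least 2.01-fold lower (adjusted p = 0.0287, lost in 6 of 11 alternatives). On 1452723_at MLL-ENL was also called lower than HoxA9+Meis1, at 311 to 408 (adjusted p = 0.0325, lost in 7 of 12), with no bound because HoxA9+Meis1 was itself near the filter level. The seventh, 1436952_at, ranged from 659.8 to 1262 with no call.

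Markers of other cell types moved with Meis1 too. In HoxA9+Meis1 against HoxA9, the 20 tested members of the monocyte list held 4 that rose and 0 that fell, and the 8 of the dendritic and MHC list held 2 that rose and 0 that fell, against 8.66% of all genes called. The summed signal of the dendritic list was 29056 to 51524 in HoxA9+Meis1 and 4659 to 7195 in HoxA9, and its member Flt3, a cytokine receptor, had 29802 ± 5847 in HoxA9+Meis1 and 1060 ± 364 in HoxA9 (SD, n = 3 each). A large part of the sum in HoxA9+Meis1 came from Flt3, so the sum does not describe the whole list. Of the 8 tested members, 6 were not called, and the list median was 0.465 against -0.0216 over all genes. Cd34, a progenitor surface protein, had 49234 ± 1350 in HoxA9+Meis1 and 679 ± 1009.8 in HoxA9, and the granule protease Elane had 18585 ± 5846 in HoxA9+Meis1 and 112625 ± 4991 in HoxA9. Their part in the Klf3 and Klf9 differences was not tested.

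**Figure D2:**
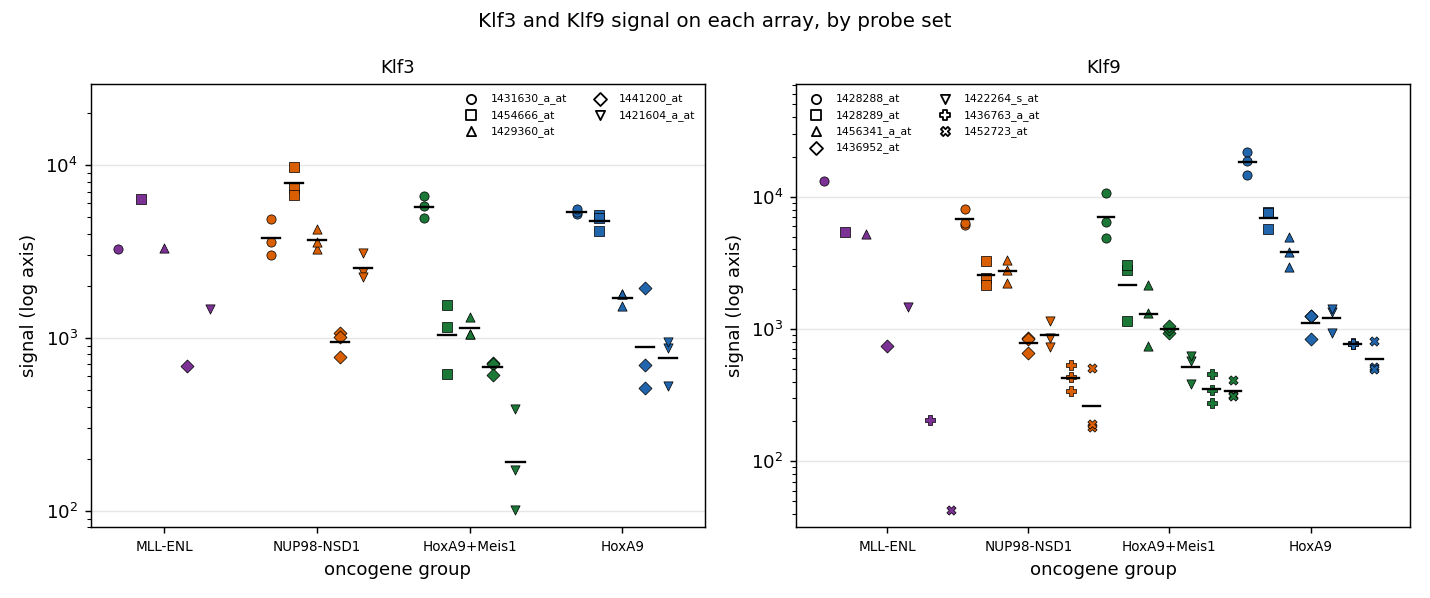
Signal (log axis) of the 5 kept Klf3 and 7 kept Klf9 probe sets on each of the 10 arrays, by oncogene group; each symbol is a probe set, each point an array, and bars are group means taken on the log2(signal + 32) scale. Klf3 probe sets 1454666_at and 1421604_a_at sit lowest in HoxA9+Meis1 while 1431630_a_at does not, and Klf9 1428288_at and 1428289_at sit highest in HoxA9.

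Klf4, the factor that drives monocyte formation and is one of the factors used to reprogram cells, was above the filter level on the fusion oncogene arrays and on no homeobox array. Probe set 1417394_at had 628 in MLL-ENL, 1536, 1352 and 2532 in NUP98-NSD1, 213, 338 and 353 in HoxA9+Meis1, and 248.9, 182 and 259 in HoxA9. Every NUP98-NSD1 clone exceeded all other arrays, and no homeobox clone reached the filter level. NUP98-NSD1 was at least 4.42-fold higher than HoxA9 (adjusted p = 3.8e-04) and at least 4.42-fold higher than HoxA9+Meis1 (adjusted p = 7.0e-04), with the dim group set at the filter level. The other probe set, 1417395_at, had 636 in MLL-ENL, 683, 929 and 1098 in NUP98-NSD1, 30.5, 209 and 101.9 in HoxA9+Meis1, and 91.2, 157.9 and 36.4 in HoxA9. It was at least 2.29-fold higher in NUP98-NSD1 than in HoxA9 (adjusted p = 0.00523) and than in HoxA9+Meis1 (adjusted p = 0.00575). All 4 calls were kept under every alternative run. Both probe sets passed the filter only through the fusion groups, so their count is no support by itself.

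MLL-ENL lay above both homeobox groups on both Klf4 probe sets without passing the test: on 1417394_at adjusted p = 0.0939 against HoxA9 and 0.172 against HoxA9+Meis1, and on 1417395_at 0.0757 and 0.0733. Other scalings gained some of these calls: 1417394_at passed against HoxA9 in 3 of 14 alternatives (quantile normalization, common median and cyclic loess), and 1417395_at in 1 of 12 against HoxA9 and 2 of 12 against HoxA9+Meis1. MLL-ENL was -1.43 from NUP98-NSD1 on 1417394_at (adjusted p = 0.143) and -0.46 on 1417395_at (adjusted p = 0.831), so the order of the fusion groups was not resolved. HoxA9+Meis1 and HoxA9 were both below the filter level, and no fold is given between them. Relative to HoxA9, NUP98-NSD1 had 6 of the 20 monocyte list members called higher and 0 lower, with a list median of 0.78 against -0.14 over all genes, of which 31.4% were called. Relative to HoxA9+Meis1 it had 5 higher and 3 lower, against 32.6%. The summed signal of the monocyte list was 480292 in MLL-ENL, 313754 to 542321 in NUP98-NSD1, 124385 to 229553 in HoxA9+Meis1 and 120624 to 179613 in HoxA9. A large part of it in the fusion groups came from the lysozyme genes, so the sum does not describe the whole list. Lyz1 had 129454 in MLL-ENL, 91088 to 186512 in NUP98-NSD1, 4826 to 20978 in HoxA9+Meis1 and 18790 to 33190 in HoxA9. Lyz2 had 103012, 73579 to 159107, 4341 to 16726 and 15566 to 25932 in the same order. Marco, a scavenger receptor of macrophages, was below the filter level on every array.

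Granulocyte and mast cell genes moved in the same comparisons. Relative to HoxA9, NUP98-NSD1 had 8 of 12 neutrophil granule list members called higher and 0 lower, against 31.4% of all genes called, and the summed signal was 27083 in MLL-ENL, 445319 to 1033892 in NUP98-NSD1, 13918 to 99453 in HoxA9+Meis1 and 18025 to 92622 in HoxA9. Against the same 31.4%, it had 9 of 11 mast cell list members higher and 0 lower, with sums of 5058 in MLL-ENL, 64540 to 322399 in NUP98-NSD1, 17780 to 27224 in HoxA9+Meis1 and 8118 to 13210 in HoxA9. The part of these cell types, and of the set of arrays, in the Klf4 difference was not tested.

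Klf5, an activator best known in dividing epithelial cells, had probe sets that disagreed. On 1451021_a_at NUP98-NSD1 was highest: 490.3 in MLL-ENL, 1814, 2199 and 3421 in NUP98-NSD1, 499, 607.5 and 1050.2 in HoxA9+Meis1, and 688, 414 and 879.6 in HoxA9. NUP98-NSD1 was 1.87 above HoxA9 (SE 0.366, adjusted p = 0.00423) and 1.76 above HoxA9+Meis1 (adjusted p = 0.00519), and MLL-ENL was -2.21 from NUP98-NSD1 (SE 0.517, adjusted p = 0.0427). On 1451739_at the fusion groups were lowest: 842 in MLL-ENL, 918, 645.5 and 740.5 in NUP98-NSD1, 1801, 1895 and 1338 in HoxA9+Meis1, and 1578, 1627 and 1691 in HoxA9. NUP98-NSD1 was -1.07 from HoxA9 (SE 0.211, adjusted p = 0.00438) and -1.09 from HoxA9+Meis1 (adjusted p = 0.00355), and MLL-ENL was -0.95 from HoxA9+Meis1 (adjusted p = 0.0464). No clone of NUP98-NSD1 overlapped a homeobox clone on either probe set, so no single direction can be given for the gene. The NUP98-NSD1 calls held under every alternative, while the MLL-ENL call against NUP98-NSD1 was lost in 7 of 12 and that against HoxA9+Meis1 in 7 of 14. The probe set left out of the tests, 1430255_at, exceeded 369 only in HoxA9 clones 1 and 2, at 433 and 519.

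Klf2, which keeps T cells quiescent and circulating and restrains monocyte activation, is read by 1 probe set, 1448890_at. It had 4729.8 in MLL-ENL, 1664, 1838 and 1975 in NUP98-NSD1, 2373, 1919 and 2387 in HoxA9+Meis1, and 876, 1147 and 1725 in HoxA9. The MLL-ENL array was above all 9 clones, and HoxA9 held the lowest clones. MLL-ENL was 1.95 above HoxA9 on the log2 scale (SE 0.326, adjusted p = 0.00433), and this call held in all 14 alternatives. It was 1.36 above NUP98-NSD1 (adjusted p = 0.0468) and 1.08 above HoxA9+Meis1 (adjusted p = 0.0406). The call against NUP98-NSD1 was lost in 5 of 14 alternatives, among them leaving out NUP98-NSD1 clone 1 or 2, and that against HoxA9+Meis1 in 6 of 14, among them leaving out any HoxA9+Meis1 clone. Among the groups with clones, HoxA9+Meis1 was 0.86 above HoxA9 with no overlap (SE 0.231, adjusted p = 0.0502), a value on the threshold that passed in 7 of 20 alternatives. NUP98-NSD1 was 0.59 above HoxA9 (adjusted p = 0.0801) and -0.28 from HoxA9+Meis1 (adjusted p = 0.386), with overlapping clones in both.

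Klf7, known from nerve cell development, had probe sets that were higher in NUP98-NSD1 cells. By limma on the mean of its probe sets, NUP98-NSD1 was 1.11 above HoxA9+Meis1 (adjusted p = 0.00495). Against HoxA9 that mean was 0.45 higher and not called (adjusted p = 0.148). Probe set 1419354_at had 3870.5 in MLL-ENL, 3832, 3724 and 5179 in NUP98-NSD1, 1288, 1751 and 1749 in HoxA9+Meis1, and 2843, 2107 and 2061 in HoxA9. The fusion arrays were above all homeobox clones and HoxA9+Meis1 was below all HoxA9 clones. NUP98-NSD1 was 1.39 above HoxA9+Meis1 (SE 0.197, adjusted p = 6.7e-04) and 0.85 above HoxA9 (adjusted p = 0.00951), and MLL-ENL was 1.27 above HoxA9+Meis1 (adjusted p = 0.0108). On 1419356_at, with 3244 in MLL-ENL, 4404 to 5612 in NUP98-NSD1, 1997 to 2751 in HoxA9+Meis1 and 2879 to 4036 in HoxA9, NUP98-NSD1 was 1.06 above HoxA9+Meis1 (adjusted p = 0.00142) and 0.58 above HoxA9 (adjusted p = 0.03). The call against HoxA9 was lost in 5 of 20 alternatives, including without HoxA9 clone 2 or 3 or NUP98-NSD1 clone 2 or 3. On 1449439_at only the difference of 0.80 between NUP98-NSD1 and HoxA9+Meis1 passed (adjusted p = 0.0422), and it was lost in 9 of 19. The remaining one, 1419355_at, ran from 236.4 to 1412 with no call. All 4 probe sets were negative between HoxA9+Meis1 and HoxA9, from -1.16 to -0.46, with no call.

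**Figure D3:**
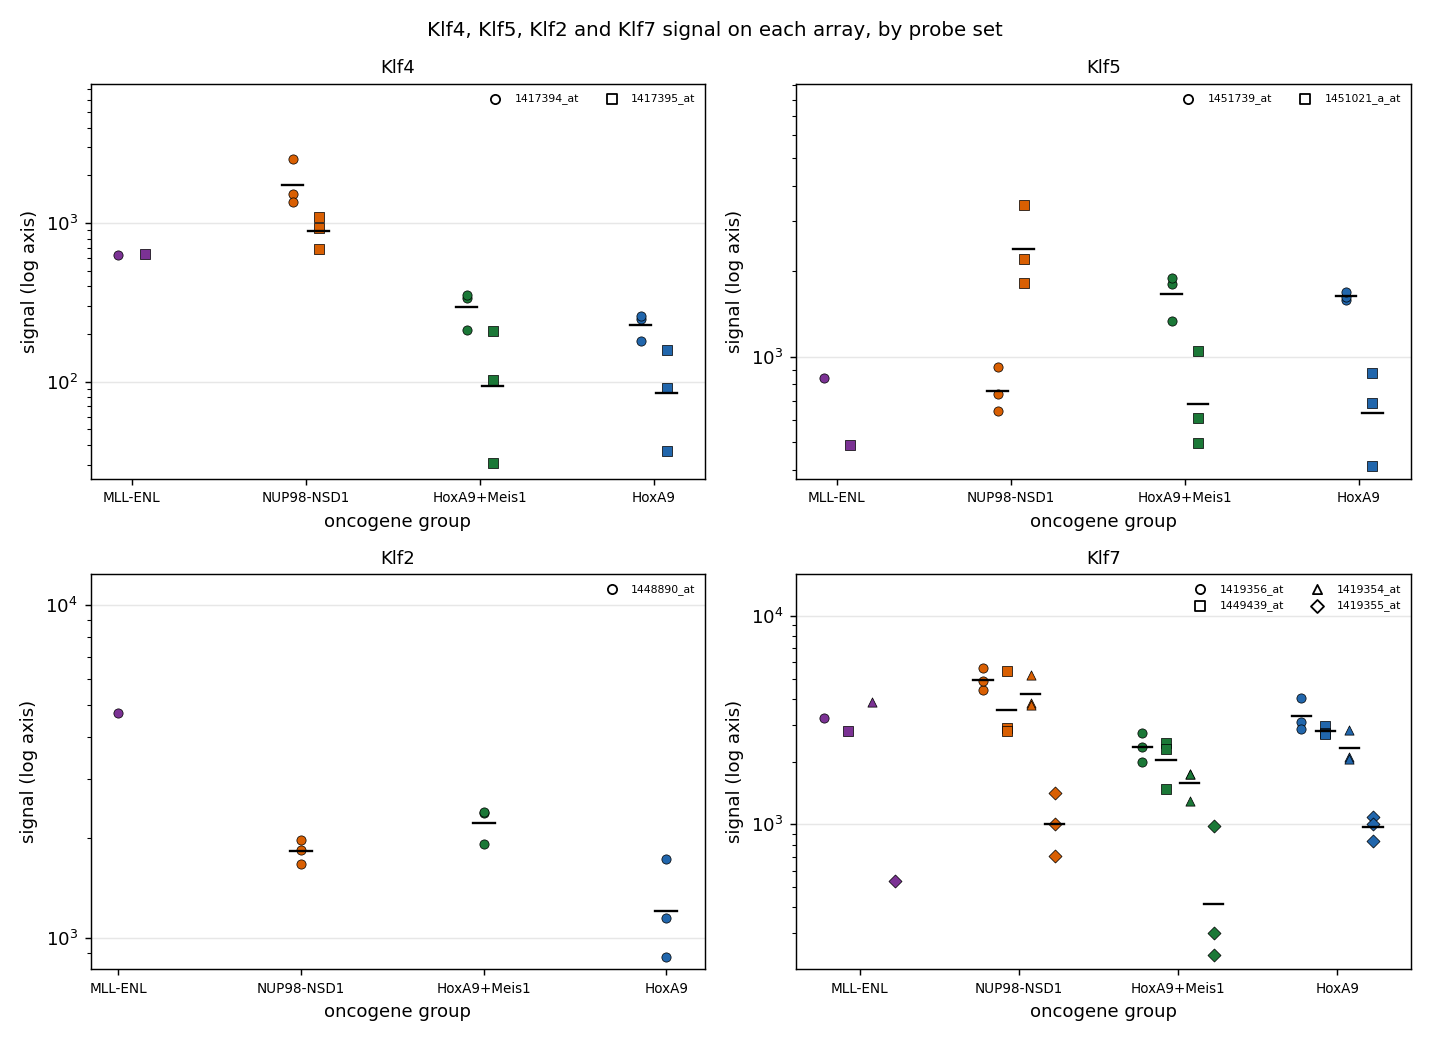
Signal (log axis) on each of the 10 arrays, by oncogene group, for the kept probe sets of Klf4, Klf5, Klf2 and Klf7; symbols are probe sets, points are arrays and bars are group means on the log2(signal + 32) scale. Klf4 is high in NUP98-NSD1 and below 369 in both homeobox groups, the Klf5 probe sets run in opposite directions, the single MLL-ENL array is highest for Klf2, and Klf7 1419354_at is lowest in HoxA9+Meis1.

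Klf6, a factor of the injury response and of inflammatory macrophages, had 5 tested probe sets and 1 call over the 6 comparisons. That was 1447448_s_at, with 1638 in MLL-ENL, 1173, 1726 and 3008 in NUP98-NSD1, 663, 512 and 1019 in HoxA9+Meis1, and 1090.4, 703 and 1183 in HoxA9. NUP98-NSD1 was 1.34 above HoxA9+Meis1 (SE 0.368, adjusted p = 0.0195) with no overlap, a call lost without HoxA9+Meis1 clone 1 or 2 or NUP98-NSD1 clone 3. The other 4 had 0 calls by limma; over all arrays 1433508_at ranged from 2180.4 to 4895.5, 1427742_a_at from 1259.9 to 2874, 1418280_at from 777.5 to 1960.4 and 1459718_x_at from 243.5 to 667. At an unadjusted p under 0.05, Klf6 had 1 probe set in NUP98-NSD1 against HoxA9, 2 in NUP98-NSD1 against HoxA9+Meis1, 1 in MLL-ENL against HoxA9+Meis1 and 0 in the other 3 comparisons.

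Klf10, a TGF-beta-inducible repressor, showed no difference past the threshold. Its probe set 1416029_at had 4096 in MLL-ENL, 4842, 4726.5 and 3632 in NUP98-NSD1, 5027, 3540.5 and 4309.6 in HoxA9+Meis1, and 3593.5, 5917 and 3993 in HoxA9. Its differences lay between -0.10 and 0.04 in the 6 comparisons, with SEs of 0.205 or 0.29 and 0 calls by limma, and none had an unadjusted p under 0.05. Clones of one group spread more widely than the groups did. Klf13, the Ccl5 promoter factor, had 0 calls on 1436316_at and 1432543_a_at, and at an unadjusted p under 0.05 it had 1 probe set each in NUP98-NSD1 against HoxA9, NUP98-NSD1 against HoxA9+Meis1, MLL-ENL against HoxA9 and MLL-ENL against HoxA9+Meis1. On 1436316_at it had 5891 in MLL-ENL, 6907, 5809 and 3715 in NUP98-NSD1, 5604, 5808 and 5263 in HoxA9+Meis1, and 3988, 4593 and 4751 in HoxA9. Klf13 did pass under some alternatives. The mean of its probe sets was called higher in NUP98-NSD1 than in HoxA9 (0.35, adjusted p = 0.0319) and in MLL-ENL than in HoxA9 (0.54, adjusted p = 0.0422). Without NUP98-NSD1 clone 3, 1436316_at was called in NUP98-NSD1 against HoxA9 (adjusted p = 0.0137), and without clone 1, 1432543_a_at was called in NUP98-NSD1 against HoxA9+Meis1 (adjusted p = 0.039). With a common median, 1436316_at was called in MLL-ENL against HoxA9 (adjusted p = 0.0229) and 1432543_a_at in MLL-ENL against HoxA9+Meis1 (adjusted p = 0.0476). As deposited, its largest difference was 0.73, on 1432543_a_at in MLL-ENL against HoxA9+Meis1 (adjusted p = 0.0853). Its other probe set, 1456030_at, was at most 198.2.

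**Figure D4:**
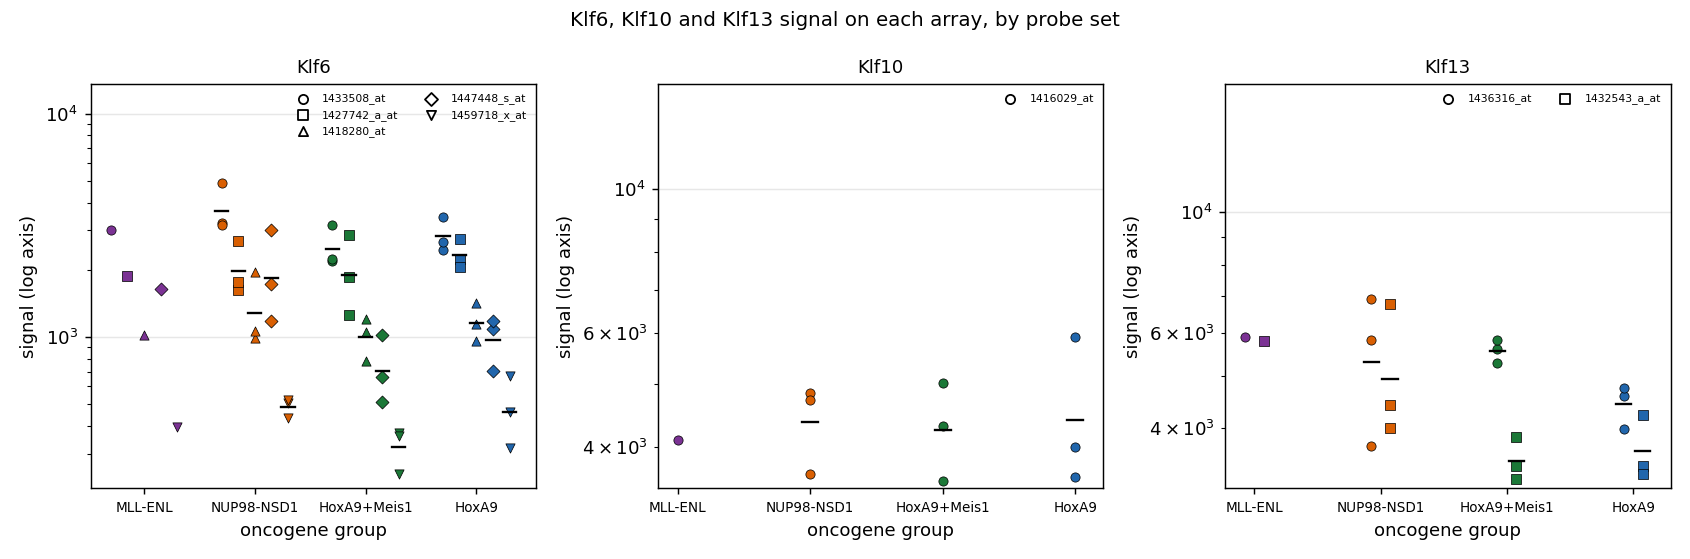
Signal (log axis) on each of the 10 arrays, by oncogene group, for the kept probe sets of Klf6, Klf10 and Klf13; symbols are probe sets, points are arrays and bars are group means on the log2(signal + 32) scale. Klf6 1447448_s_at is higher in NUP98-NSD1 than in HoxA9+Meis1, and the groups of Klf10 overlap throughout.

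Other genes of the family and its partners were read through the brightest kept probe set of each gene. Of the other Krueppel-like factors, 6 of 7 on the array passed the filter. In NUP98-NSD1 against HoxA9 only Klf16 was called, at 1721.5 ± 689 in NUP98-NSD1 and 3145 ± 1016 in HoxA9 (SD, n = 3 each; log2 difference -0.88, adjusted p = 0.0363). In NUP98-NSD1 against HoxA9+Meis1 only Klf11, a relative of Klf10, was called, at -0.67 (adjusted p = 0.0125), and HoxA9+Meis1 against HoxA9 had 0 of 6 by limma. Of 5 Sp genes, which bind the same GC-rich boxes, 1 rose in each NUP98-NSD1 comparison: Sp1 had 30507 ± 827 in NUP98-NSD1, 15548 ± 540 in HoxA9+Meis1 and 15682 ± 1287 in HoxA9 (SD, n = 3 each), a difference of 0.97 and 0.96 on the log2 scale (adjusted p = 4.8e-05 and 4.9e-05). Of all genes, 31.4% were called in NUP98-NSD1 against HoxA9, 32.6% in NUP98-NSD1 against HoxA9+Meis1 and 8.66% in HoxA9+Meis1 against HoxA9. MLL-ENL had 30005 for Sp1. In the MLL-ENL comparisons the other Krueppel-like factors had 0 calls against NUP98-NSD1 and 1 lower each against HoxA9 and HoxA9+Meis1, where 4.62%, 14.9% and 21.5% of all genes were called.

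Among 12 corepressors and coactivators, NUP98-NSD1 had 3 higher and 2 lower than HoxA9 and 4 higher and 5 lower than HoxA9+Meis1, and HoxA9+Meis1 had 2 higher and 0 lower than HoxA9. Over all genes 31.4%, 32.6% and 8.66% were called in these 3 comparisons. Sin3b, a scaffold for histone deacetylases, had 9173 ± 770 in NUP98-NSD1, 23354 ± 6271 in HoxA9+Meis1 and 18081 ± 1447 in HoxA9. Ctbp1, the corepressor that Klf3 recruits, was higher in HoxA9+Meis1 than in HoxA9 by 0.32 (adjusted p = 0.0289), while Ctbp2 was lower in NUP98-NSD1 than in HoxA9 by -0.84 (adjusted p = 8.2e-04). Ep300, an acetyltransferase, was 0.69 higher in NUP98-NSD1 than in HoxA9 (adjusted p = 0.00117).

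Of 15 genes that set the synthesis or stability of Krueppel-like factors, NUP98-NSD1 had 2 higher and 2 lower than HoxA9 and 2 higher and 4 lower than HoxA9+Meis1, and HoxA9+Meis1 had 2 higher and 1 lower than HoxA9. The share of all genes called was 31.4%, 32.6% and 8.66% in the same 3 comparisons. Of 3 MEF2 genes in the list, whose products activate Klf2 and Klf4 transcription downstream of the kinase Erk5, Mef2d and Mef2c rose with Meis1. Mef2d had 13781 ± 1469 in HoxA9+Meis1 and 4968 ± 566 in HoxA9 (difference 1.47, adjusted p = 3.1e-04), and Mef2c had 24164 ± 2562 in HoxA9+Meis1 and 11047 ± 652 in HoxA9 (difference 1.12, adjusted p = 9.1e-05). Mapk7, which encodes Erk5, fell: it had 338 ± 186 in NUP98-NSD1, 645 ± 356 in HoxA9+Meis1 and 2301 ± 334 in HoxA9 (adjusted p = 0.00241 for NUP98-NSD1 and 0.037 for HoxA9+Meis1 against HoxA9). The NUP98-NSD1 mean is below the filter level, so no size is given. Fbxw7, part of a ubiquitin ligase, was 0.78 higher in NUP98-NSD1 than in HoxA9 (adjusted p = 0.0024).

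Genes that Krueppel-like factors are known to act on in other cells were counted in the same way. Of 10 homing and quiescence genes linked to Klf2 in T cells or endothelium, 3 rose and 0 fell in HoxA9+Meis1 against HoxA9, where 8.66% of all genes were called: the integrin Itgb7, the cytokine receptor Il7r and the cell cycle inhibitor Cdkn1a. Itgb7 averaged 7686 in HoxA9+Meis1 and 340.11 in HoxA9 (adjusted p = 1.0e-04); the HoxA9 mean is below the filter level of 369, so the size of the difference is not given. NUP98-NSD1 had 3 higher and 1 lower than HoxA9, against 31.4% of all genes, and 1 higher and 3 lower than HoxA9+Meis1, against 32.6%. Of 5 genes linked to repression by Klf3, Cd72, a B cell surface protein, rose in HoxA9+Meis1 against HoxA9 by 2.47 (adjusted p = 0.0436) and Pld3, a lysosomal enzyme, fell by 1.00 (adjusted p = 0.0239). Both NUP98-NSD1 comparisons had 0 rises in this list of 5, with 2 falls against HoxA9 and 1 against HoxA9+Meis1, shares near the 31.4% and 32.6% of all genes called.

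Of 11 glucocorticoid response genes beside Klf9, HoxA9+Meis1 had 2 higher and 0 lower than HoxA9, against 8.66% of all genes called. These were Zbtb16 by 2.19 (adjusted p = 0.0108) and Dusp1 by 1.22 (adjusted p = 0.00623). The median of the 11 was -0.285 in this comparison, against -0.0216 over all genes. In NUP98-NSD1 against HoxA9, where Klf9 probe sets were also lower, it was 0.609 against -0.136. The part of Klf9 in this list was not tested. NUP98-NSD1 had 4 higher and 0 lower than HoxA9, against 31.4% of all genes, and 5 higher and 0 lower than HoxA9+Meis1, against 32.6%. Of 15 TGF-beta genes beside Klf10, NUP98-NSD1 had 6 higher and 2 lower than HoxA9 and 5 higher and 1 lower than HoxA9+Meis1, and HoxA9+Meis1 had 1 higher and 1 lower than HoxA9. The shares over all genes were again 31.4%, 32.6% and 8.66%. Of 7 genes beside Klf13, among them Ccl5 and NF-kappa B subunits, NUP98-NSD1 had 0 higher and 1 lower than HoxA9 and 1 higher and 2 lower than HoxA9+Meis1, and HoxA9+Meis1 had 1 higher and 0 lower than HoxA9. All genes had 31.4%, 32.6% and 8.66% called. NUP98-NSD1 and HoxA9+Meis1 are each set against the same HoxA9 arrays, so these counts are not independent of each other.

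Genes with the profiles most like those of the strongly varying members were ranked by the root mean square difference of log2 values, centred on each probe set's mean, over all 10 arrays. Among 25424 probe sets of other genes, those nearest to Klf9 1428288_at were Gadd45b (0.232), Evi5 (0.261) and Vegfa (0.286). Nearest to Klf4 1417394_at were Hipk2 (0.308), Tbc1d9b (0.311) and Id2 (0.329). Klf4 1417394_at was below the filter level on all 6 homeobox arrays, and Tbc1d9b averaged below it in MLL-ENL, HoxA9+Meis1 and HoxA9, so these distances rest largely on signals below that level. Nearest to Klf2 were Lmo2 (0.276), Tnfaip8l2 (0.288) and Lhfpl2 (0.293). For Klf3 1454666_at, chosen after its values were seen, they were Cdh20 (0.214), Tlr4 (0.267) and Ptpn12 (0.288). Cdh20 averaged 76.2 in HoxA9+Meis1, below the filter level, so its distance rests in part on signals below that level. Tlr4 had 3411 in MLL-ENL, 4527 ± 1413 in NUP98-NSD1, 474 ± 142 in HoxA9+Meis1 and 3042 ± 210 in HoxA9 (SD, n = 3 each), the same order of groups as Klf3 1454666_at. That shared order follows from the ranking that picked Tlr4 on the same arrays and is no separate result. The brightest probe sets of the other 6 members varied by less than 2 log2 units over the arrays and were not matched.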

How the data were processed

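Signals were measured on 10 Affymetrix arrays. Each of the 45101 probe sets has a deposited intensity, linear in scale, for every array, and 0 columns belong to no sample. Which software computed it is not given in the sources used here. Trimmed means show that the authors or their software had scaled each array, so the deposited intensity was used as it is.

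Values were tested as log2(signal + 32). Probe sets above the 40th percentile of all values (369.318) on at least 3 arrays were kept, 30945 in all, and the 64 control probe sets were left out. Symbols came from the platform annotation, checked by Entrez ID against a RefSeq gene table for 34741 probe sets (204 had an ID not in it, and 0 symbols changed). Of the probe sets, 34945 carry 1 symbol, 932 several and 9160 none.

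The test was limma's (version 3.58.1, R 4.3.3): a model of 4 group means over all 10 arrays with 6 residual degrees of freedom, contrasts, and eBayes with an intensity trend. P-values are two-sided and Benjamini-Hochberg adjusted over all kept probe sets in each of 6 comparisons. Where no array of a group reached the filter level, that level stood in for its mean and the fold is given as at least a value. Figures used Python 3.11.15 and matplotlib 3.10.9.

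All probe sets of the 9 genes are accounted for. Other genes are up to 4 called members of a list with the largest difference, others that a counted list rests on, and the 3 genes of most like pattern for members spanning at least 2 log2 units. Csf1r is in both the monocyte and the progenitor list, and Itgam in both the monocyte and the neutrophil list. The members and lists were chosen with earlier results of these data known. The fit was tested on simulated data. Alternatives were quantile normalization, a common median, cyclic loess, offsets of 1 and 100, 2 other filters, 1 value per gene, probe sets with shared probes left out, eBayes without a trend or robust, fewer groups, the clone number as a block, and leaving out each clone.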

Additional observations from a re-analysis of the deposited data

How the results depend on the processing

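Of the 46 called Klf differences, 27 were kept under every alternative run for them and 0 reversed. Taking 1 value per gene tests 9 genes in place of 29 probe sets, with p adjusted over 14233 genes in place of all kept probe sets. With the brightest probe set per gene, Klf calls were 5 for NUP98-NSD1 against HoxA9, 4 for NUP98-NSD1 against HoxA9+Meis1, 2 for HoxA9+Meis1 against HoxA9, 1 for MLL-ENL against NUP98-NSD1, 1 for MLL-ENL against HoxA9 and 2 for MLL-ENL against HoxA9+Meis1 (all genes: 4483, 4608, 1376, 683, 2083 and 3083). Averaging the probe sets within each gene gave 4, 3, 3, 1, 2 and 2 (all genes: 3915, 4198, 1146, 662, 1589 and 2668). Leaving out probe sets that share probes gave 8, 3, 1 and 6 for NUP98-NSD1 against HoxA9+Meis1, HoxA9+Meis1 against HoxA9, MLL-ENL against NUP98-NSD1 and MLL-ENL against HoxA9+Meis1 (1373 over all for HoxA9+Meis1 against HoxA9). Without an intensity trend HoxA9+Meis1 against HoxA9 had 3 (1005 over all) and MLL-ENL against NUP98-NSD1 had 0. That last comparison also had 0 with quantile normalization or no filter and 1 with a common median or cyclic loess (734 over all with a common median). MLL-ENL against HoxA9 had 7 with a common median and 2 with the 60th percentile filter, and 2631 over all with quantile normalization. HoxA9+Meis1 against HoxA9 had 1245 over all with a common median.

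Leaving out 1 clone gave Klf calls of 9 to 12 for NUP98-NSD1 against HoxA9, 9 to 13 for NUP98-NSD1 against HoxA9+Meis1, 3 to 6 for HoxA9+Meis1 against HoxA9, 0 to 2 for MLL-ENL against NUP98-NSD1, 2 to 3 for MLL-ENL against HoxA9 and 5 to 9 for MLL-ENL against HoxA9+Meis1. Over all probe sets the ranges were 6113 to 9359, 6559 to 9276, 1132 to 1820, 676 to 2872, 2918 to 3230 and 4161 to 5129. The lowest Klf counts came without HoxA9+Meis1 clone 2 (3 for HoxA9+Meis1 against HoxA9 and 5 for MLL-ENL against HoxA9+Meis1), without NUP98-NSD1 clone 1 or 2 (0 for MLL-ENL against NUP98-NSD1) and without HoxA9 clone 1 (2 for MLL-ENL against HoxA9). Over all probe sets, MLL-ENL against NUP98-NSD1 had 2872 without NUP98-NSD1 clone 3 and 676 without clone 2, HoxA9+Meis1 against HoxA9 had 1132 and 1159 without HoxA9+Meis1 clone 2 or 1 and 1202 and 1398 without HoxA9 clone 2 or 3, and MLL-ENL against HoxA9 had 2980 and 2918 without HoxA9 clone 2 or 3.

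Scaling moved the balance of calls. In NUP98-NSD1 against HoxA9, 42.5% of all calls were higher, against 64.4% with a common median and 52.7% with cyclic loess; the common median gave 61.1%, 58.2%, 40.2%, 74.3% and 72% in the other comparisons, where it had been 44.5%, 49.3%, 29.7%, 34.6% and 38.2%, and cyclic loess gave 44.7% in MLL-ENL against HoxA9. The cause was not tested. With the clone number as a replicate block, the 3 comparisons with clones had 12, 14 and 6 Klf calls (8318, 8783 and 1901 over all) and all 30 of their calls were kept; same-numbered clones correlated between -0.0644 and 0.0426 in their deviations, so the numbers are not taken as pairs. Dim probe sets, such as those of Klf4 in the homeobox groups, have only a bound.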
